A study of Mus musculus with 2 samples.

Results

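The pancreas delivers its digestive enzymes into the gut from acinar cells. In the epithelium of the pylorus, the last part of the stomach, 10 genes for digestive enzymes of this type and their partners were followed. They were Ela1 (a chymotrypsin-like elastase, Cela1 in current nomenclature), Clps (colipase), the lipase genes Pnlip, Pnliprp1, Pnliprp2 and Cel, the amylase gene Amy1, the carboxypeptidase gene Cpb1, the chymotrypsinogen gene Ctrb1 and the ribonuclease gene Rnase1. They were taken by gene name from the arrays and had 14 probes, of 41059 probes for 27678 genes left after marked spots were removed. The genes had been chosen by their function and with their ratios of GFPhigh over GFPlow on these arrays known, so every ratio and count given for them is a description and none of them was tested. Of the 10 genes, 6 were measured, which required a signal above background on both arrays, and 4 were not, of which Cel was above background on array 1 only. Elastase and colipase gave bright signals and were higher in the cells with high GFP, amylase was higher in the cells with low GFP by 1 of its 2 probes, and pancreatic lipase and carboxypeptidase B1 were at background in both.

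The RNA came from a mouse line, Lgr5-EGFP-ires-CreERT2, in which the Lgr5 gene, a stem cell marker of several epithelia, drives both GFP and an inducible Cre from a knock-in allele. Pyloric tissue of 20 mice was pooled, dissociated with trypsin and sorted into cells with high GFP (GFPhigh) and cells with low GFP (GFPlow). Both populations therefore carry the same knock-in allele, and no untreated or GFP-negative population is part of the comparison. The age of the mice is not given in the sources used here. There was 1 RNA sample per population, and both were hybridised together on 2 Agilent two-colour arrays with the dyes exchanged: GFPhigh was labelled with Cy3 on array 1 and with Cy5 on array 2. The arrays thus measured the same pair of RNA samples 2 times. With 1 replicate per population no test could be made, and every SD below covers technical error only. In RNA of sorted cells, a larger share of expressing cells and more RNA per cell cannot be told apart.

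As background, pancreatic acinar cells store proteases as inactive precursors, and amylase and lipases as active enzymes, in secretory granules. Pancreatic lipase, encoded by Pnlip, cleaves dietary triglycerides and needs colipase to stay bound to fat droplets coated with bile salts. Pnliprp1 and Pnliprp2 are its close relatives, of which Pnliprp2 encodes an active lipase, while the Pnliprp1 protein has little or no known lipase activity. Digestion in the stomach itself rests mainly on pepsin, made from pepsinogens secreted by chief cells. Ela1 is known in rodents as a pancreatic enzyme and is also transcribed in other tissues.

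Each probe is a 60-base DNA oligonucleotide. The probes below carry the signals on which the account of elastase, colipase, the lipase relatives and amylase rests, and each was read from the array files.
Ela1 probe 1: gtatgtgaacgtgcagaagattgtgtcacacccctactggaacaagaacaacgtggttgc
Ela1 probe 2: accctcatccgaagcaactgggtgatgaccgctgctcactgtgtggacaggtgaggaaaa
Clps probe: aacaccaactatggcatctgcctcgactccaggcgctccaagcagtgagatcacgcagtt
Pnliprp1 probe: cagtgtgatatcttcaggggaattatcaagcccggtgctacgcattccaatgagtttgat
Pnliprp2 probe: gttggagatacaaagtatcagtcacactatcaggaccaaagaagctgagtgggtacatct
Amy1 probe 1: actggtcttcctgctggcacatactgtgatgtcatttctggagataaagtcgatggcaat
Amy1 probe 2: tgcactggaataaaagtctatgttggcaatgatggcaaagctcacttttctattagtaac
On the mm9 build named in the file headers, the Ela1 probes lie on the minus strand at chr15:100515014-100515073 and chr15:100515555-100515614, and the Clps probe on the minus strand at chr17:28695242-28695301. The Pnliprp1 probe lies on the plus strand, where its 60 bases are listed as spanning 594 bases, chr19:58815028-58815621. The Pnliprp2 probe is at chr19:58848560-58848619, also on the plus strand. The Amy1 probes are on the minus strand at chr3:113259010-113259069 and chr3:113258950-113259009, with 0 bases between them, so that together they cover 120 bases. Exon positions on mm9 were not analysed here.

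Signals are spot mean intensities in scanner units, before any subtraction, and are set against 153 negative control spots with no known mouse target. The control spots had medians of 108 in GFPhigh on array 1 and 172 on array 2, against 170 in GFPlow on array 1 and 112 on array 2. Their 95th percentiles were 120.2 and 187 in GFPhigh and 184 and 127 in GFPlow, in the same order of arrays. The background of a channel thus followed the dye, being higher in Cy5. A probe counted as above background in a population when the scanner software called its channel well above background. A gene was measured when its brighter population was above background on both arrays, and ratios are log2 of GFPhigh over GFPlow after background correction and loess, a curve fitted to each array that sets the average ratio at each brightness to 0. The count of differing genes took those at least 2-fold higher in the same population on each array. By this rule 138 of 7832 measured genes were higher in GFPhigh (1.76%) and 211 were higher in GFPlow (2.69%), with a median log2 ratio of -0.06. The difference between the arrays had an SD of 0.57 over all measured genes, which are not independent replicates.

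Of the 6 measured enzyme genes, 3 were higher in GFPhigh (Ela1, Clps and Pnliprp2), beside 1.76% of all measured genes. Amy1 alone was higher in GFPlow, beside 2.69% of all measured genes, and Pnliprp1 and Ctrb1 were counted in neither. The median of the 6 ratios was 1.16, and 5 of the 6 were above 0. Nothing is read from these shares, since the ratios had guided the choice of genes. The counts also depend on how each array is centred. With each array centred on the median of its unmarked gene spots in place of loess, 0 of the 10 genes were counted as higher in GFPhigh. Most of these spots were not above background: 28.6% and 18.7% were in GFPhigh on arrays 1 and 2, and 25.1% and 31.7% in GFPlow. The median over measured genes then lay at -0.49. With centring on spike-in RNA 1 of the 10 genes was counted, which was Ela1 under both ways of doing it. After loess the 10 spike-in probes ran between -2.52 and 3.66 on array 1 and between -2.04 and 4.31 on array 2.

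**Figure D1:**
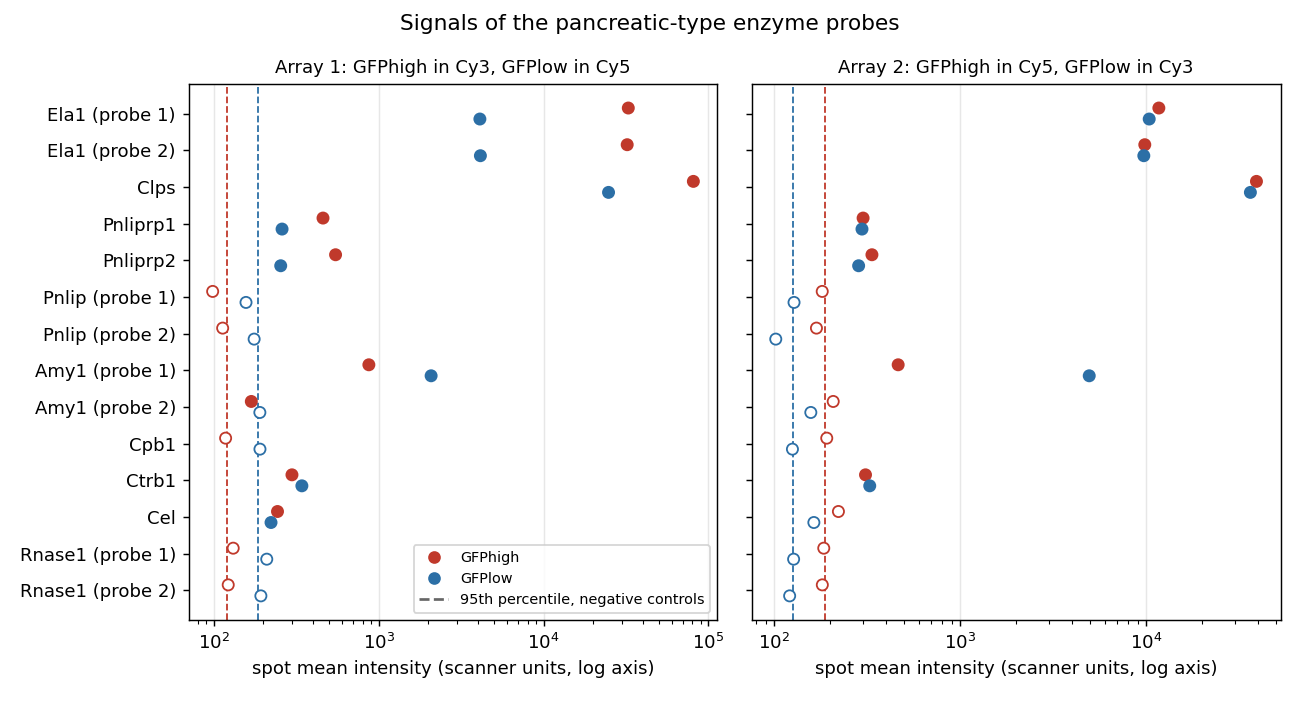
Spot mean intensity (scanner units, log axis) of each of the 14 probes in GFPhigh (red) and GFPlow (blue), with array 1 on the left and array 2 on the right. Filled points are above background, open points are not, and dashed lines mark the 95th percentile of the negative controls in each channel; Ela1 and Clps lie far to the right of these lines in both populations, while Pnlip, Cpb1 and Rnase1 have open points throughout.

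Elastase had bright signals in both populations. Ela1 probe 1 read 32660.1 on array 1 and 11718 on array 2 in GFPhigh, against 4111 and 10398 in GFPlow. On array 1 GFPhigh was far brighter, whereas on array 2, with the dyes exchanged, the populations were nearly equal before normalization. Background-subtracted signals gave log2 ratios of 3.03 and 0.16 on these arrays, where the median over 9499 measured probes was 0.35 on array 1 and -1.77 on array 2. After loess the arrays gave 2.69 and 2.57. Their mean was 2.63 ± 0.08 (SD of 2 arrays), which is 6.20-fold. Ela1 probe 2 read 32159.8 and 9846 in GFPhigh, against 4140.3 and 9728 in GFPlow. It gave 2.66 and 2.39 after loess, a mean of 2.53 ± 0.19, so both probes had the same direction and nearly the same size. Ela1 ranked 8th of 7832 genes from the GFPhigh end. With median centring its ratio was 2.97 on array 1 and 0.38 on array 2, so that the direction held but array 2 did not reach 2-fold.

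Colipase, the partner that anchors pancreatic lipase to fat, had bright signals in both populations too. The Clps probe read 81033 on array 1 and 39231 on array 2 in GFPhigh, against 24785 and 36391 in GFPlow. GFPhigh was the brighter channel on both arrays, by little on array 2. Before loess the arrays gave log2 ratios of 1.72 and 0.11, and after loess 1.42 and 2.75. The mean was 2.09 ± 0.94, or 4.25-fold, the 20th rank from the GFPhigh end. The arrays gave the same direction but sizes that differed more for Clps than for any other measured member. With median centring the values were 1.67 and 0.32, below 2-fold on array 2.

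The lipase relatives were dim. Pnliprp2, the active relative of pancreatic lipase, read 548 and 336.0 in GFPhigh, against 255 and 285 in GFPlow. All 4 signals were above background, and GFPhigh was clearly brighter on array 1 only. On array 2 it was in Cy5, the channel with the higher background. Background-subtracted signals gave log2 ratios of 2.08 on array 1 and -0.16 on array 2. After loess the arrays gave log2 ratios of 1.46 and 1.22, with a mean of 1.34 ± 0.17, or 2.53-fold. With median centring they were 1.71 and 0.14, and without background correction the mean was 1.00 and Pnliprp2 was no longer counted. Pnliprp1 read 459.7 and 301 in GFPhigh, against 259 and 297 in GFPlow. All 4 signals were above background, and those of array 2 were close to each other before the higher background of Cy5 was subtracted. Background-subtracted signals gave log2 ratios of 1.64 on array 1 and -0.49 on array 2, and median centring gave 1.32 and -0.14, so that array 2 had the opposite sign in both. Before loess the median over 9499 measured probes was 0.35 on array 1 and -1.77 on array 2, and Pnliprp1 lay above it on both. After loess the ratio was 1.07 and 0.89, a mean of 0.98 ± 0.13, so that it fell just short of 2-fold on array 2. Pnliprp2 at 1.22 and Pnliprp1 at 0.89 on their weaker arrays were the members just inside and just outside the threshold.

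**Figure D2:**
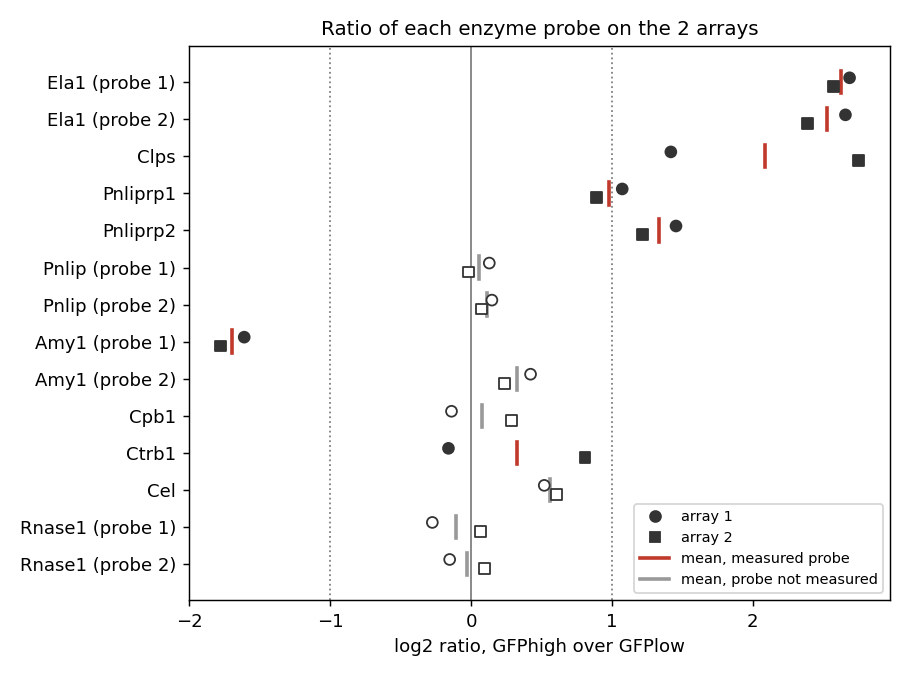
Log2 ratio of GFPhigh over GFPlow after loess for each of the 14 probes on array 1 (circles) and array 2 (squares), with a vertical bar at the mean of both. Filled symbols are measured probes, open symbols are not, and dotted lines mark 2-fold; both Ela1 probes lie close together above 2, the Clps points are far apart at 1.42 and 2.75, and Amy1 probe 1 is the only measured probe below -1.

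Pancreatic lipase itself gave no signal above background. The Pnlip probes, at chr19:58748342-58748401 and chr19:58755296-58755355 of mm9 on the plus strand, read 98.4 and 182 for probe 1 in GFPhigh, against 157 and 128 in GFPlow. Probe 2 read 113 and 169 in GFPhigh, against 176 and 102 in GFPlow. None of these signals was well above background, and all but 1 lay below the 95th percentile of the negative controls in their channel, the exception being GFPlow on array 2 for probe 1. In the RefSeq gene order, Pnlip, Pnliprp1 and Pnliprp2 are consecutive protein-coding genes on chromosome 19, so that 1 gene of this cluster was at background beside a pair that gave signal in the same RNA.

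Amylase had the opposite direction to elastase. Amy1 probe 1 read 872 and 464.9 in GFPhigh, against 2080.2 and 4949 in GFPlow. GFPlow was brighter on both arrays, whichever dye it carried. The log2 ratios were -1.61 and -1.78, with a mean of -1.70 ± 0.12, which is 3.24-fold lower in GFPhigh. Amy1 ranked 80th from the GFPlow end and was counted as higher in GFPlow in all 13 alternative settings, some of which leave its ratio unchanged. The file lists RefSeq transcripts of both Amy1 and the neighbouring gene Amy2a5 for this probe, so its signal cannot be given to 1 of these genes. Of the pair, Amy2a5 is the pancreatic amylase gene. Amy1 probe 2, listed for Amy1 alone and directly adjacent, read 169 and 208 in GFPhigh, against 190.3 and 158 in GFPlow. It was above background only in GFPhigh on array 1 and was not measured, so the probes for Amy1 disagree. The probe named Amy2-2 in the files (Amy2a5) read 161 and 190.3 in GFPhigh, against 294 and 431 in GFPlow. It was above background in GFPlow on both arrays and in GFPhigh on array 1, and its ratio of -0.85 and -1.22, a mean of -1.04 ± 0.27, had the direction of Amy1 probe 1 without reaching 2-fold on array 1.

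The remaining proteases and the ribonuclease were dim or at background. Ctrb1, the precursor of chymotrypsin, read 298 and 310.3 in GFPhigh, against 342 and 327 in GFPlow. All 4 signals were above background, and the ratio had opposite signs on the arrays, -0.16 and 0.81, with a mean of 0.32 ± 0.69. Cel, the bile salt-activated lipase, read 243 and 222 in GFPhigh, against 222 and 164 in GFPlow. It was above background in both populations on array 1 and in neither on array 2, and was not counted as measured. Cpb1, which removes basic residues from the ends of peptides, read 118 and 192 in GFPhigh, against 191 and 126 in GFPlow. Rnase1, the pancreatic ribonuclease, read 131 and 185 for probe 1 in GFPhigh, against 209.5 and 127 in GFPlow. Its probe 2 read 122 and 182 in GFPhigh, against 193 and 121 in GFPlow. No signal of Cpb1 or Rnase1 was well above background, and on both arrays the Cy5 channel read higher, whichever population it held.

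Other products of pancreatic acinar cells, most of them secreted, were examined next. A list of such products had 20 genes on the array, and 7 of them gave a measured ratio. GFPhigh was higher for 2 of these and GFPlow for 0, beside 1.76% and 2.69% of all measured genes. Their median ratio was 0.58, beside -0.06 over all measured genes. Pdia2, a protein disulfide isomerase of the pancreas, read 2815 and 1089.9 in GFPhigh, against 795 and 1252 in GFPlow, and its ratio was 1.62 on both arrays. Klk1, a tissue kallikrein found in several glands, was at 1.22 ± 0.27. With median centring or either spike-in centring, 0 of the 20 were counted as higher in GFPhigh, and without background correction 1 was. The trypsinogen genes Try5 and Prss3 were at 0.79 ± 0.15 and 0.58 ± 0.33. Pla2g1b, the pancreatic phospholipase A2, was at 0.17 ± 0.36, and Sycn, a granule protein, at 0.13 ± 0.28. Amy2a5, at -1.04 ± 0.27 as given above, was the only measured gene of the list with a mean below 0.

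The other 13 genes of the list were not measured. They were the carboxypeptidase Cpa1, the proteases Ctrc, Ctrl, Cela2a, Cela3b and Prss2, the trypsin inhibitor Spink1, and Zg16, Cuzd1, Reg1, Reg2, Serpini2 and Gp2. All but Reg1 were above background in neither population on either array, and Reg1 was above it in GFPhigh on array 1 and in GFPlow on array 2. Cpa1, a marker of acinar cells, read 109.8 and 177 in GFPhigh, against 170.4 and 121 in GFPlow. Cela2a, the elastase that acinar cells make beside Ela1, read 107 and 181 in GFPhigh, against 169 and 113 in GFPlow. Prss2, a trypsinogen, read 152 and 188 in GFPhigh, against 193 and 135 in GFPlow. Over the 13 genes the signals ran between 107 and 199.98 on array 1 and between 154 and 208 on array 2 in GFPhigh, against 169 to 208 and 97.3 to 190.0 in GFPlow. None of the 13 was called above background on both arrays in either population, whereas Ela1 and Clps were in both. Summed over the 20 genes, the signal was 10878 on array 1 and 6531 on array 2 in GFPhigh, against 6633 and 9852 in GFPlow. The sums include background, are not normalized and have their largest parts from Klk1, Pdia2 and Pla2g1b, so they do not compare the populations.

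**Figure D3:**
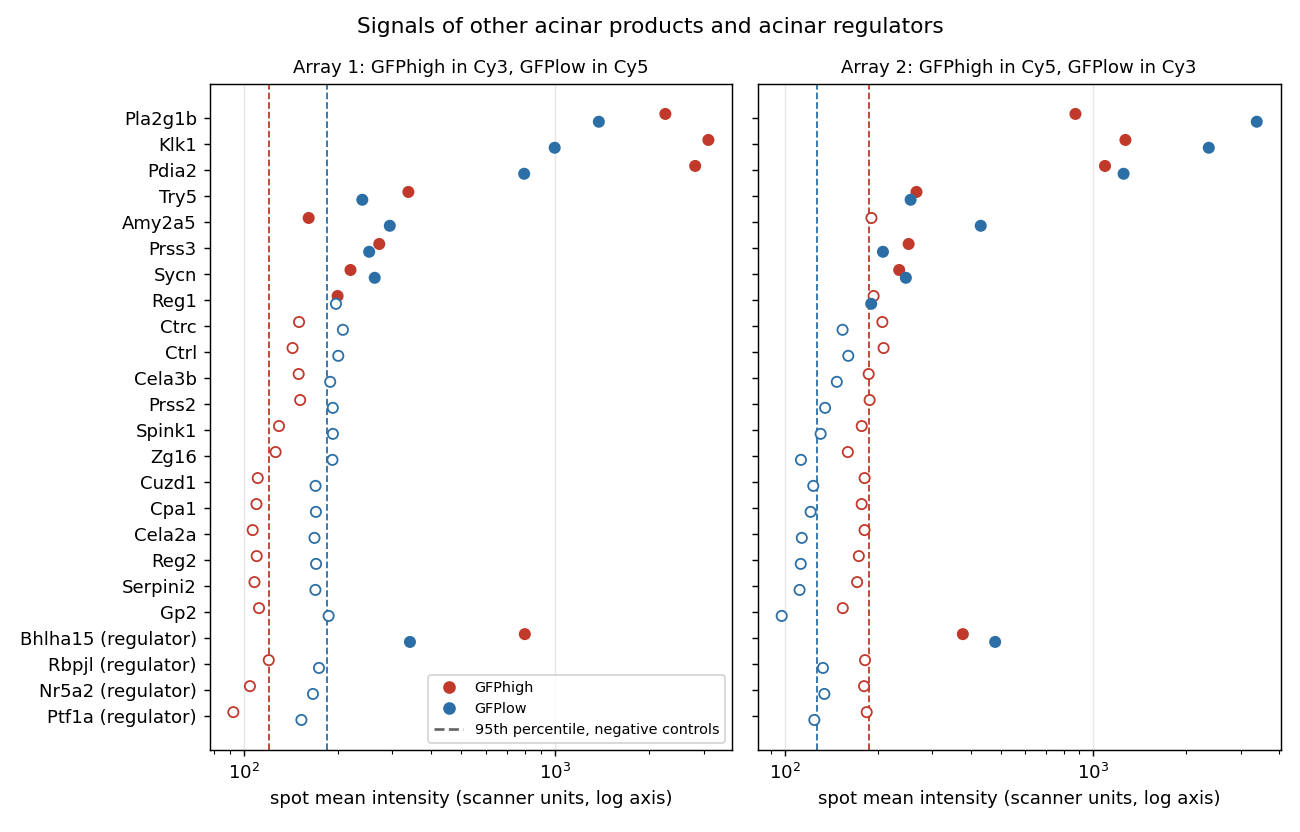
Spot mean intensity (scanner units, log axis) of 20 other acinar products and 4 acinar transcription factors in GFPhigh (red) and GFPlow (blue), array 1 on the left and array 2 on the right. Filled points are above background, open points are not, and dashed lines mark the 95th percentile of the negative controls; 12 of the 20 products, from Ctrc to Gp2, have open points throughout, as do Rbpjl, Nr5a2 and Ptf1a.

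Among 4 transcription factors of acinar cells, only Bhlha15 was measured. Bhlha15 (Mist1) serves the secretory machinery of acinar cells and of gastric chief cells. It read 799 and 377 in GFPhigh, against 341.5 and 479.7 in GFPlow, and its ratio was 1.28 and 0.86, a mean of 1.07 ± 0.30. GFPhigh was higher on both arrays after loess, but array 2 did not reach 2-fold. Ptf1a and Rbpjl, subunits of the complex that drives acinar enzyme genes, and Nr5a2 were at background. Ptf1a read 92.5 and 184 in GFPhigh, against 153 and 124 in GFPlow. Of 6 islet genes on the array 0 were measured, Ins1 and Ins2 among them. Of 5 duct genes, Cftr was measured at -0.17 ± 0.36 and Spp1 at 1.70 ± 1.01, neither of them counted. The receptor gene Cckar, through which cholecystokinin triggers enzyme release, was the only measured one of 6 secretagogue receptor genes. Its ratio was 1.32 on array 1 and 0.89 on array 2, so it was not counted. By levels averaged over the arrays Cckar was at least 2.09-fold higher in GFPhigh, where it was not well above background in GFPlow. This bound is for the average and does not hold for array 2 alone.

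The genes of the stomach's own secretory cells give the surroundings of these enzymes. Of 5 chief cell genes, 3 were higher in GFPhigh: Cblif (intrinsic factor) at 4.25 ± 0.82, Pgc (progastricsin) at 3.22 ± 0.69 and Pga5 (pepsinogen) at 2.31 ± 0.66. Chia1, an acidic chitinase, was higher in GFPlow at -4.11 ± 0.61, as Amy1 was, and Lipf, gastric lipase, was at background. Of 4 genes of mucous cells in the neck and gland base, Gkn3 at 2.96 ± 1.51 and Aqp5 at 2.72 ± 0.92 were higher in GFPhigh, while Tff2 at 1.82 ± 1.22 and Muc6 at 1.06 ± 0.28 were not counted. All 4 genes of surface mucous cells were higher in GFPlow, with Gkn2 at -3.24 ± 0.55, Tff1 at -3.20 ± 1.12 and Muc5ac at -2.33 ± 0.37. Gkn1 was not above background in GFPhigh and was at least 3.07-fold higher in GFPlow. Lgr5, on which the sort was based, was higher in GFPhigh at 2.28 ± 0.06. The signals of Tff1, Tff2, Gkn2 and Gkn3 were above background in both populations, and those of Gkn1 in GFPlow only. The counted chief and base mucous cell genes other than Chia1 had the direction of Ela1. Those of surface mucous cells had the direction of Amy1 probe 1, as Chia1 did. Any part of these cells in the enzyme ratios was not tested.

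**Figure D4:**
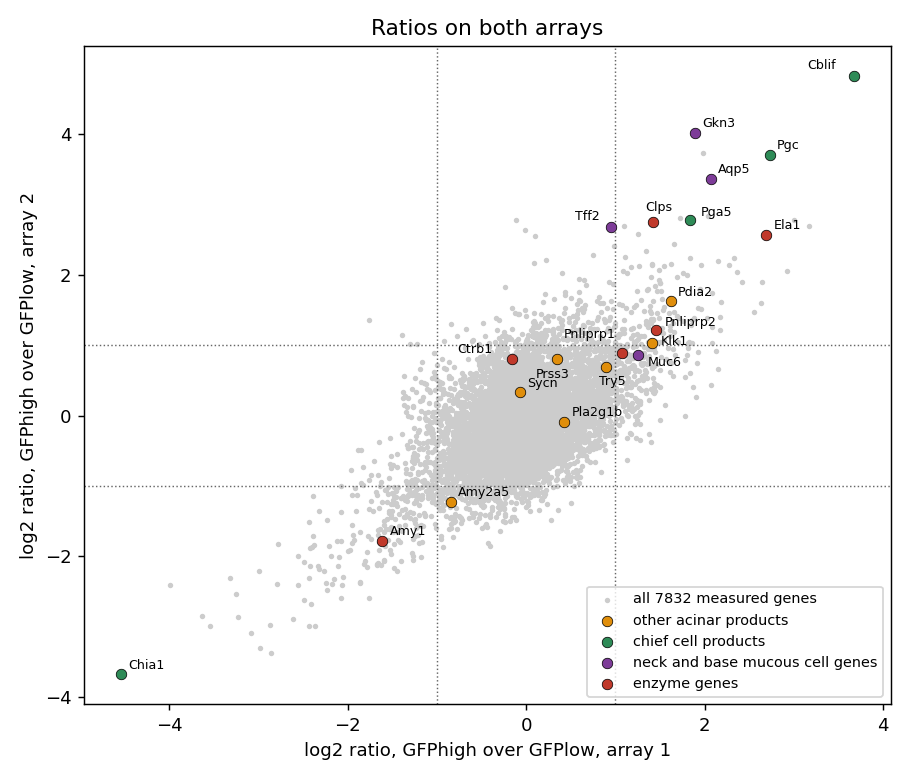
Log2 ratio of GFPhigh over GFPlow after loess on array 1 (horizontal axis) and array 2 (vertical axis) for all 7832 measured genes (grey), with the measured enzyme genes in red, other acinar products in orange, chief cell genes in green and neck and base mucous cell genes in purple. Dotted lines mark 2-fold; Ela1 and Clps lie in the upper right with Pgc, Pga5 and Aqp5, and Amy1 lies in the lower left with Chia1.

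Clps had the highest average signal of the measured members, and the genes whose pair of array ratios lay nearest to its own were named by Euclidean distance over the 2 arrays. They were the major urinary protein genes Mup1 (distance 0.24, ratios 1.26 and 2.58) and Mup4 (0.33, ratios 1.096 and 2.700), the collagen gene Col11a2 (0.30, ratios 1.72 and 2.81), Lrg1 (0.39, ratios 1.65 and 2.45) and Chad (0.42, ratios 1.34 and 2.34). The Mup genes are near-identical copies, so their probes are uncertain. With 1 RNA sample per population, likeness over 2 arrays describes ratios and array noise together. None of the 5 is a digestive enzyme gene.

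Promoter sequence was set beside the ratios for elastase and the lipase cluster, since these genes ran from the 8th rank to background. The table of RefSeq promoters (GRCm38.p6) held 9 of the 10 genes. The 250 bases before each start are shown on the gene's own strand. Capitals mark matches, on either strand, to 3 motifs. CACCTG is an E-box of the kind bound by dimers of Ptf1a. TGGGAA is the core bound by Rbpj and its pancreatic relative Rbpjl. The third motif, TATAAA, is the core promoter element of that name.
Ela1 (chr15:100687921-100688170, minus strand): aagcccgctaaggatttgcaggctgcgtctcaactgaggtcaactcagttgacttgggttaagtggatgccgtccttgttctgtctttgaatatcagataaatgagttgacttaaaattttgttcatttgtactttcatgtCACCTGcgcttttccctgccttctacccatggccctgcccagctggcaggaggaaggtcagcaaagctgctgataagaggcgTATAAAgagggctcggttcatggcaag
Pnliprp1 (chr19:58728637-58728886, plus strand): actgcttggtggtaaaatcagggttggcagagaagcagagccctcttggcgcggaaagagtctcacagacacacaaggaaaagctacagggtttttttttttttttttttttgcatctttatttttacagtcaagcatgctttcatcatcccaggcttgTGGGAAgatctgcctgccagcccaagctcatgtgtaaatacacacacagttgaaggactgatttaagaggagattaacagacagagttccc
Pnliprp2 (chr19:58759473-58759722, plus strand): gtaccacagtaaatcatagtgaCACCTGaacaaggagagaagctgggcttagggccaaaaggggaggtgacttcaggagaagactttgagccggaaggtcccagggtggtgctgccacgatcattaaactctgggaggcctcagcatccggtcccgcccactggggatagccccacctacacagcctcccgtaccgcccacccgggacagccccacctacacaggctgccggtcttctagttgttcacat
Pnlip (chr19:58670115-58670364, plus strand): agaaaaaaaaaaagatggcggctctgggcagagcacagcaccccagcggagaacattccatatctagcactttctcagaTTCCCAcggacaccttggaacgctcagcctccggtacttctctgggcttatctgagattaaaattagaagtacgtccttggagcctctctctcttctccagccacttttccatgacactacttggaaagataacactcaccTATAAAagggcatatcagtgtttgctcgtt
Ela1, at 2.63, had CACCTG starting at -109 and TATAAA at -27 relative to the start. Pnliprp2, at 1.34, had CACCTG at -228, and Pnliprp1, at 0.98, had TGGGAA at -91. Pnlip, at background, had TGGGAA at -171, written on the other strand as TTCCCA, and TATAAA at -30. Of the 9 genes, 4 had CACCTG, 6 had TGGGAA and 3 had TATAAA in any such window. Amy1 had more than 1 window and held TGGGAA and TATAAA in different windows. Over 32851 promoter windows of the same length, counted by window and not by gene, 17.2% held CACCTG, 21.6% held TGGGAA and 12.4% held TATAAA. Only exact matches were marked, so a window without one can still hold a variant of a motif. In Ela1 the letters ttccct, which differ from TTCCCA in the last letter, follow shortly after CACCTG and were not marked. A match is a string of letters and does not show that a factor was bound in these cells.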

How the data were processed

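The authors deposited the scanner output of 2 Agilent two-colour arrays, with 45018 spots each, of which 43379 carry gene probes. Spot mean intensity and the median intensity of the local background are given per channel, per the file headers. The same files hold processed intensities (background-subtracted, detrended and dye-normalized) and their log10 ratio of Cy5 over Cy3, per the file headers. Feature Extraction is given as version 10.5.1.1 in the headers and as 9.5.3 in the submitters' processing notes. A deposited value table holds the same log10 ratios in the direction GFPhigh over GFPlow. Its column medians are 0.0188 and -0.0458, and its scale and direction were settled by comparison with the scanner values. RNA was extracted with Trizol and 150 ng was labelled by linear amplification, per the labels' protocols, so transcript abundance was read after amplification.

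Mean intensities were corrected with normexp (offset 50) and normalized by loess within each array in limma 3.58.1 (R 4.3.3), with control spots at weight 0. Marked spots (non-uniform or population outlier) were left out, and 0 gene spots were saturated. Offset and normexp pull ratios of dim probes such as Pnliprp1, Pnliprp2 and Ctrb1 towards 0. Replicate spots were averaged. Probes were kept if the population with the higher level was called well above background on array 1 and on array 2, and the brightest kept probe stood for its gene. For "at least" values the mean level of the bright population was divided by a floor for the dim one. On each array the floor was the dim probe's level or the lowest level of any probe called above background, whichever was higher, after loess and Aquantile scaling, and it was averaged over the arrays.

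All 10 enzyme genes were named with every probe. Of each other list up to 4 measured genes with the largest ratios were named, to which were added, for acinar products, those that gave signal in 1 population only, and the 5 genes nearest to the brightest enzyme gene. Further genes were named in sentences on acinar products to account for the list. Genes and lists were chosen with earlier results of these data known. Symbols came from RefSeq (GRCm38.p6, also the source of the promoters), in which 25010 probes matched by accession. A probe named Ela2 in the files is the neutrophil elastase gene by its accession and was not counted as an acinar product.

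The pipeline was run on simulated arrays with known changes. These arrays had no offset like that of array 2 before loess, so the run does not cover it. Alternatives covered background correction, signals, centring, filter, probe rule, threshold, each array alone and the value table. Spike-in centring with 1 constant over both arrays was chosen after seeing the data. The number of arrays limits the precision. Tables and figures were made with pandas 2.3.3, numpy 2.4.6 and matplotlib 3.10.9.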

Additional observations from a re-analysis of the deposited data

How the results depend on the processing

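No paired analysis was possible because each population is 1 RNA sample. The direction of the mean ratio of Ela1, Clps, Pnliprp1 and Pnliprp2 towards GFPhigh and of Amy1 towards GFPlow was kept in all 13 alternatives. That of Ctrb1 was not, with 9 values above 0 and 4 below. Not all alternatives could change a direction. The changes of filter and the 1.5-fold threshold repeated the main ratio of each measured member, and the mean over kept probes did so for all but Ela1. The value table gave nearly the same ratios as the processed signals. Ela1 ran between 1.63 and 2.92 and was counted in 12 alternatives, Clps between 0.95 and 2.75 and in 10, Pnliprp2 between 0.56 and 2.08 and in 9, Pnliprp1 between 0.20 and 1.57 and in 5, and Amy1 between -2.47 and -1.58 and in 13.

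The number of enzyme genes higher in GFPhigh was 3, but 0 with median centring and 1 with spike-in centring per array or over both arrays. The median ratio of the measured enzyme genes was 1.16. It was 0.88 without background correction, 1.35 with an offset of 16, 1.82 with the processed signals and with the value table, 0.76 with median centring, 0.71 with spike-in centring per array, 0.38 with spike-in centring over both arrays and 0.44 over all 10 genes with no filter on dim probes. The number of other acinar products higher in GFPhigh was 2, but 1 without background correction and 0 with median centring and both spike-in centrings.

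Over all genes, 138 were higher in GFPhigh and 211 in GFPlow. The counts towards GFPhigh were 352 with the processed signals and with the value table, 10 with median centring, 30 with spike-in centring per array, 21 with spike-in centring over both arrays and 438 at 1.5-fold. Those towards GFPlow were 512 with the processed signals, 508 with the value table, 941 with spike-in centring per array, 1612 with spike-in centring over both arrays, 588 at 1.5-fold and 139 where both populations had to be above background. Single arrays gave between 347 and 370 genes towards GFPhigh and between 397 and 497 towards GFPlow, since only 1 array had to pass. The share of counted genes that were higher in GFPhigh was 39.5%, against 4.46% with median centring, 3.09% with spike-in centring per array and 1.29% with spike-in centring over both arrays, and the median of all genes moved to -0.49, -0.53 and -0.81. Ratios above are therefore relative to the average gene of similar brightness, and spike-in centring over both arrays lowers each by 0.78. Apart from single arrays, the 1.5-fold threshold and the filters, where the rule itself changes what passes, the cause of these shifts was not tested. Signals of Pnlip, Cpb1, Rnase1 and Cel near background limit any statement on these genes to the detection limit of the arrays.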

Other observations

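Relatives of the enzyme genes by family were mostly at background. Of 10 other lipases and partners on the array, Liph was at 0.30 ± 0.95 and Pnpla2 at -0.17 ± 0.17, neither counted, and 8 were not measured, among them Lipc, Lpl and gastric lipase. Of 13 other metallocarboxypeptidases examined 4 were measured. Cpn1, the catalytic subunit of carboxypeptidase N of the plasma, read 5095 and 2574 in GFPhigh, against 1645 and 3185 in GFPlow, and was higher in GFPhigh at 1.57 ± 0.31. Cpe, which processes hormone precursors in endocrine cells, was at -1.21 ± 0.46 and reached 2-fold on array 1 only, while Cpd was at 0.69 ± 0.16 and Cpm at -0.29 ± 0.17. Of 13 other genes of the ribonuclease A family 2 were measured, Rnase4 at 0.74 ± 0.62 and Ang (angiogenin) at 0.27 ± 0.08, and neither was counted.

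Markers of other cell types were measured in part. Of 10 genes of small intestinal enterocytes 2 were measured, the fatty acid binding protein gene Fabp2 at -2.36 ± 0.18, higher in GFPlow, and Vil1 at 0.13 ± 0.86, and Apoa1, Apoa4, Sis and Cdx2 were among the 8 at background. The parietal cell pump genes Atp4a at 0.33 ± 0.86 and Atp4b at 0.76 ± 0.56 were measured and not counted. Of 8 white blood cell genes only Fcer1g was measured, at -0.12 ± 0.35. Of 8 genes of fibroblasts, vessels and muscle only Col1a2 at 0.60 ± 0.75 and Acta2 at -0.55 ± 0.16 were.

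For Gcg, the glucagon gene, 1 of 10 spots of a probe was bright on array 1, at 16671 in GFPhigh against 2471 in GFPlow. The same spot read 177 in GFPhigh and 136 in GFPlow on array 2, and the other 9 spots of the probe read between 97.8 and 121 in GFPhigh on array 1. This single spot was chosen after its values were seen.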
